A study of Mus musculus with 6 samples.

Results

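The nuclear genes for the subunits of the respiratory chain and the ATP synthase were compared between mouse embryonic fibroblasts (MEFs) with and without Rnf40. They were taken by symbol from the deposited table of normalized counts, as every row whose name starts with Nduf followed by a, b, c, s or v and a digit, with Uqcr, with Cox4 to Cox8 or with Atp5, together with Sdha to Sdhd. This gave 86 of 29955 rows, of which 35 belong to complex I, 4 to complex II, 9 to complex III, 20 to complex IV and 15 to complex V. Ndufa4 and Ndufa4l2 were placed with complex IV, to which the NDUFA4 protein belongs. The remaining 3 rows, Cox4nb, Atp5s and Atp5sl, share the names but do not encode structural subunits. A total of 82 of the 86 rows had enough reads to be tested. The other 4, Cox4i2, Cox6a2, Cox8b and Cox8c, did not.

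Oxidative phosphorylation takes place in the inner mitochondrial membrane. Complex I (NADH dehydrogenase) and complex II (succinate dehydrogenase) pass electrons to ubiquinone, complex III (cytochrome bc1) passes them on to cytochrome c, and complex IV (cytochrome c oxidase) passes them to oxygen. Complexes I, III and IV pump protons, and complex V (ATP synthase) uses the gradient to make ATP. Apart from complex II, the complexes combine subunits made from nuclear genes with a few made from mitochondrial DNA, and many of their nuclear genes carry sites for the factors NRF1, GABP and YY1.

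RNF40 is part of the ubiquitin ligase that places a single ubiquitin on histone H2B, and the libraries were made to find which genes depend on it. The table held 3 libraries of Rnf40+/+ MEFs and 3 of Rnf40-/- MEFs, all from primary cells at passage 3. The Rnf40-/- cells came from embryos homozygous for an Rnf40 allele with loxP sites around exons 3 and 4. They carried a ubiquitous Rosa26-CreERT2 transgene, and the deletion was induced in culture with 250 nM 4-hydroxytamoxifen (4-OHT) for 5 days followed by 3 days without it. Whether the Rnf40+/+ cells carried the transgene or received 4-OHT is not given in the sources used here, so the deletion and the treatment cannot be told apart. Nor is it stated that the 3 libraries of a genotype came from separate embryos or cultures, so the p values measure the spread between these libraries, which may be technical.

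Rnf40 itself had 1278, 1195 and 1096 normalized counts in the Rnf40+/+ and 439, 519 and 487 in the Rnf40-/- libraries (log2 fold change -1.30, standard error 0.089, limma adjusted p = 4.25e-07). A normalized count is the number of reads on a gene divided by the size factor of its library, and values in single libraries are given in the order of replicates 1 to 3, for Rnf40+/+ against Rnf40-/- MEFs. The libraries held between 17053436 and 26344170 reads on genes, the most in Rnf40+/+ replicate 3, and 3 reads corresponded to 2.40 to 3.58 normalized counts. The cells were labelled as fibroblasts, and all 8 fibroblast markers examined were present, with summed levels of 354229 to 413580 normalized counts in Rnf40+/+ and 185267 to 199369 in Rnf40-/- libraries. Markers were counted as higher or lower with a limma adjusted p under 0.05. Over all genes tested, 23.3% were higher and 24.1% lower by this threshold, or 47.4% in either direction. A total of 7 of the 8 fell, among them Col1a2 (log2 fold change -2.26) and Thy1 (-1.87). The endothelial markers summed to 46.9 to 143 and 173 to 265 normalized counts, with 3 of 4 higher, and the macrophage markers to 4868 to 8789 and 3226 to 3529, with 2 of 6 higher and 1 lower. Epithelial, muscle and neural markers summed to at most 83.6, 499 and 2711 normalized counts, 1 of the 2 muscle markers tested fell, neither the epithelial marker nor the 2 neural markers tested passed the test, and Myod1 was at 0 in every library. The part of these shifts in the results was not tested, and in bulk samples fewer cells of a type cannot be told apart from less RNA per cell.

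More subunit genes were higher than lower in Rnf40-/- MEFs, and the differences were small. Of the 82 members tested, 34 (41.5%) were higher and 7 (8.54%) were lower with an adjusted p under 0.05 in limma, with Benjamini-Hochberg adjustment over all 16378 genes tested. Over all genes 23.3% were higher and 24.1% were lower, and 47.4% differed in either direction. The median log2 fold change of the members was 0.13, against -0.0035 over all genes tested. All 3 Rnf40-/- libraries lay above all 3 Rnf40+/+ libraries for 32 members (39.0%), and below them for 8 (9.76%), where the shares over all genes were 27.8% and 28.7%. Every rise was less than 2-fold. The cutoffs of the study (unadjusted p under 0.05, mean above 15 normalized counts and more than a doubling or halving) were applied to the limma values. With them 0 members were upregulated and 1, Cox6b2, was downregulated, compared with 4.25% and 5.7% of all genes tested. The study used DESeq, so these shares are not its own calls. The members took 0.795% to 0.885% of the reads in Rnf40+/+ libraries and 0.999% to 1.10% in Rnf40-/- libraries, so that these ranges did not overlap. A share of reads also depends on the other genes of the library. The 8 fibroblast markers took 1.71% to 1.97% of the reads in Rnf40+/+ and 0.980% to 1.03% in Rnf40-/- libraries. The part of such shifts in the members' share was not tested.

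**Figure D1:**
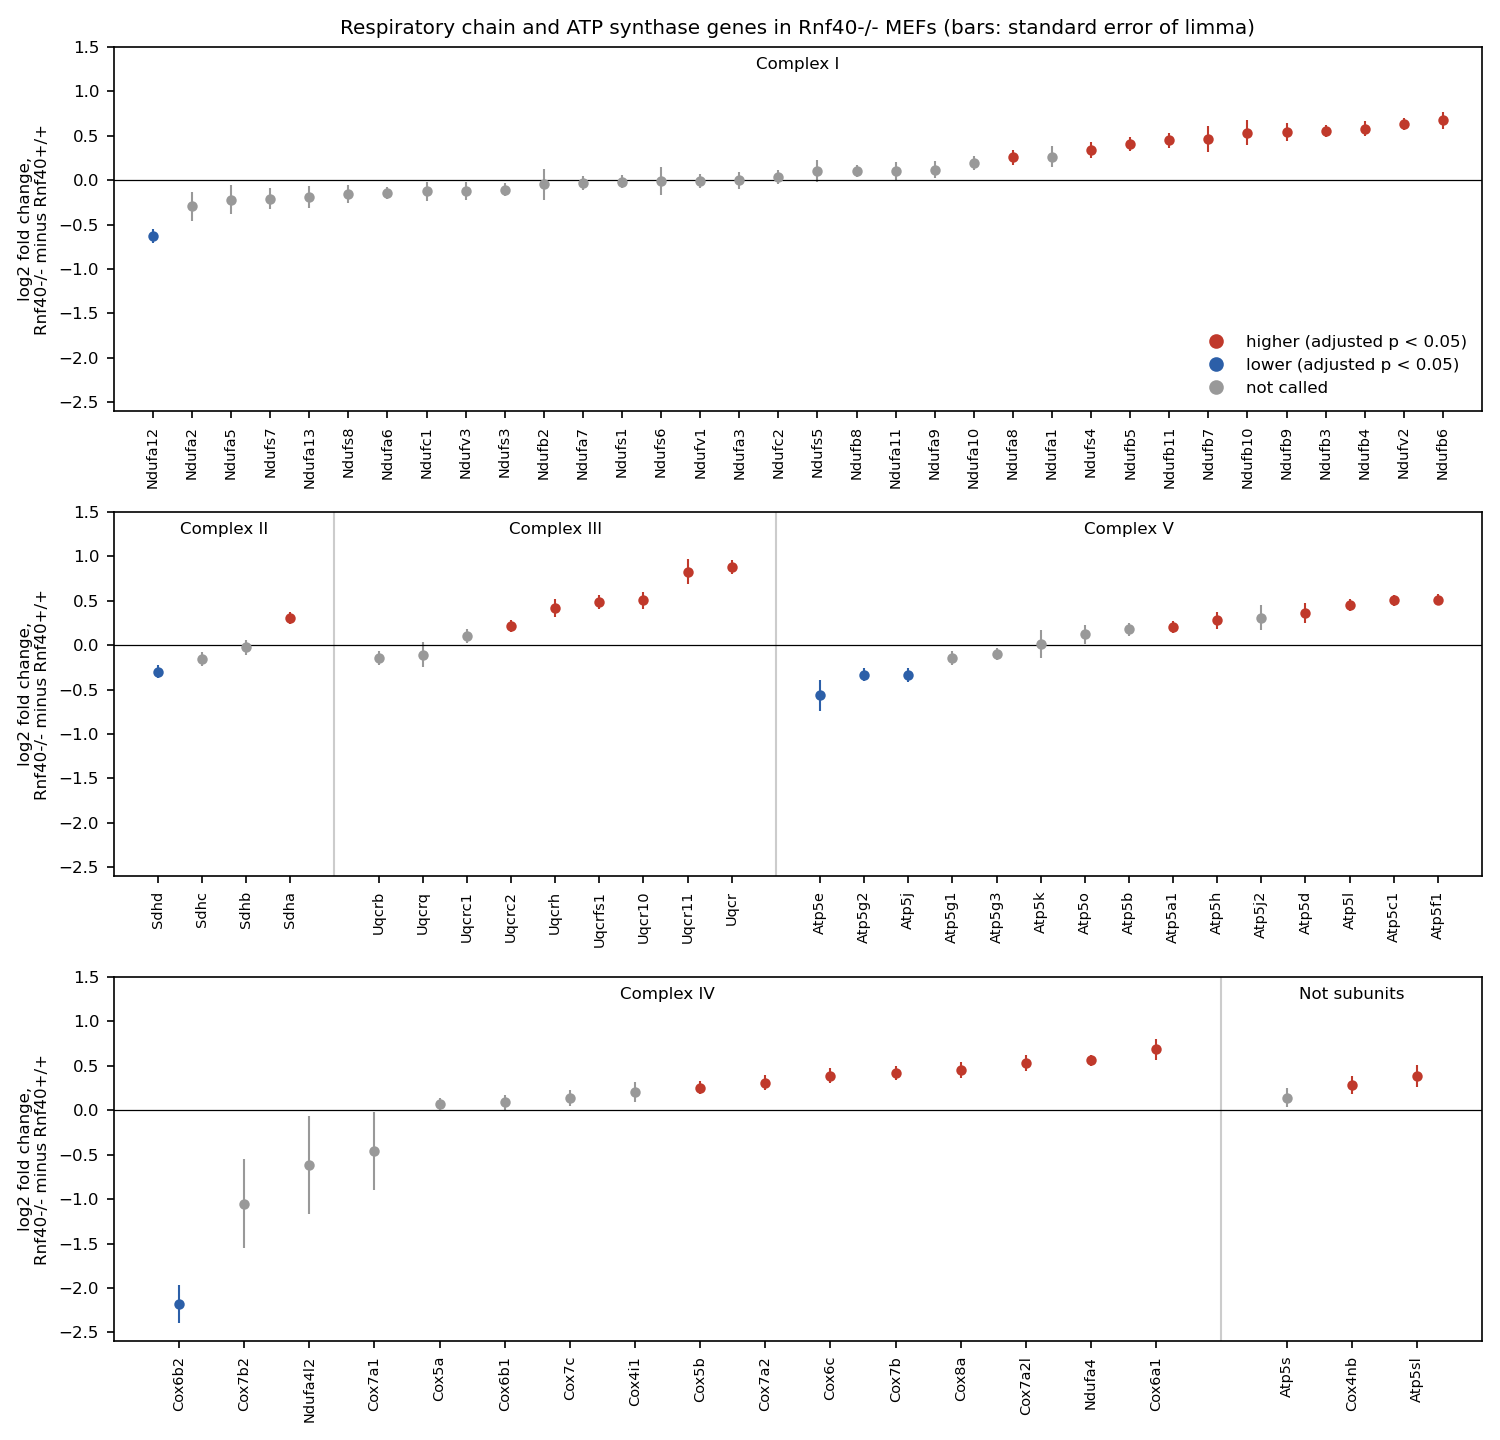
Log2 fold change (Rnf40-/- minus Rnf40+/+, on log2(normalized count + 1)) of 81 of the 82 members tested, 1 point per gene in the order of its value within each complex, with the standard error of limma as bars and the call by colour. The 34 higher members lie between 0.21 and 0.88, and the lowest point is Cox6b2 at -2.18.

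The count of called members varied by complex, and the complexes were not tested against each other. In complex III 6 of 9 members were higher and 0 were lower, and in complex IV 8 of the 16 tested were higher and 1 was lower. In complex V 6 of 15 were higher and 3 lower, and in complex I 11 of 35 were higher and 2 lower. In complex II 1 of 4 was higher and 1 lower. The shares over all genes tested were 23.3% higher and 24.1% lower, and no complex was tested against them. Complex II lay close to these shares in both directions. Complex I for higher members and complex V for lower members were not far from them. The median log2 fold changes were 0.42 for complex III, 0.23 for complex IV, 0.18 for complex V, 0.035 for complex I and -0.090 for complex II. Leaving out 1 library moved some of these values. For complex IV the median was 0.14 without Rnf40+/+ replicate 1. For complex II it was -0.14 without Rnf40-/- replicate 3 or Rnf40+/+ replicate 1, and -0.048 without Rnf40+/+ replicate 3. In complex V, 3 members were higher without replicate 1 of either genotype or without Rnf40-/- replicate 3. Without Rnf40+/+ replicate 1, 4 members of complex I and 2 of complex II were lower. Each complex held members that did not pass the test.

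Promoter sequence was examined for the members with a RefSeq window, that is the 250 bases before a start site (RefSeq, GRCm38.p6). A total of 70 members matched, representing 69 genes and 75 windows. The letters GCGCA and GCGC with any 1 base between them (NRF1), CCGGAAG (the core bound by GABP and other ETS factors) and AAGATGGCG (YY1) were searched on both strands, and none of these strings contains another. The NRF1 letters stood in 18.7% of the members' windows and in 3.74% of all 32851 windows, the GABP letters in 16.0% and 6.91%, and the YY1 letters in 2.67% and 0.606%. By call, the NRF1 letters were found in 19.4% of the windows of higher members, 28.6% of those of lower members and 16.7% of those not called. For the GABP letters these shares were 22.6%, 42.9% and 5.56%, although the lower members had only 7 windows. The row Uqcr, which rose more than Uqcr11, is an older name of that gene and shares its window. The windows of Uqcr11, Cox6a1 and Ndufb6, which rose by the most in complexes III, IV and I among genes with a window, and of Atp5g2 and Atp5e, which fell, are printed 5′ to 3′ with the matching letters in capitals. They lie on the minus strand of mm9 at chr10:79869567-79869816, chr5:115798968-115799217, chr4:40226455-40226704, chr15:102501479-102501728 and chr2:174289603-174289852, where they were placed by exact match.
Uqcr11: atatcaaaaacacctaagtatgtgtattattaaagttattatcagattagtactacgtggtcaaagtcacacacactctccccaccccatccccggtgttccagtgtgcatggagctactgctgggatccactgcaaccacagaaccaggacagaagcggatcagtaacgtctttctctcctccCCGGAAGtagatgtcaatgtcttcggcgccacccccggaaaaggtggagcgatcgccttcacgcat
Cox6a1: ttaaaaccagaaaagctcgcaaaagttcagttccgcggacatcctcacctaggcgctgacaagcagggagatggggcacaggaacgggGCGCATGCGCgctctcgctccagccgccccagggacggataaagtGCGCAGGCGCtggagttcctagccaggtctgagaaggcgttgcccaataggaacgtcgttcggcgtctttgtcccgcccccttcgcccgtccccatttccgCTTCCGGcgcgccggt
Ndufb6: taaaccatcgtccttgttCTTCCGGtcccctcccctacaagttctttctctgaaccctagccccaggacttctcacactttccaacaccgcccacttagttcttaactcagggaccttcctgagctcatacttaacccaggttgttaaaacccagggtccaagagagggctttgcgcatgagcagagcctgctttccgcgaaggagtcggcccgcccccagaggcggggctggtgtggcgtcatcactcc
Atp5g2: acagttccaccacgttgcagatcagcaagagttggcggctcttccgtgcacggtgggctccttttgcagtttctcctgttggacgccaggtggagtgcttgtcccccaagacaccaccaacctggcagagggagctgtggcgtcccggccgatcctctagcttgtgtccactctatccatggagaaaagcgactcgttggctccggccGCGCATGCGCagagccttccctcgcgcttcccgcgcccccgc
Atp5e: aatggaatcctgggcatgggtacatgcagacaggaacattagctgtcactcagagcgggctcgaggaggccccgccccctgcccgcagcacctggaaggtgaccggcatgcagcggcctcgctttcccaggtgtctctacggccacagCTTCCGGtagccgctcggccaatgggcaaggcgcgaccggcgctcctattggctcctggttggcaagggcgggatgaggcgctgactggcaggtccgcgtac
Counted back from the start site, the match of Uqcr11 spans bases 66 to 60 and that of Ndufb6 bases 232 to 226, both to the GABP letters. In Cox6a1 the NRF1 letters stand at bases 162 to 153 and 117 to 108, and the GABP letters at bases 16 to 10. Atp5g2 has the NRF1 letters at bases 42 to 33, and Atp5e the GABP letters at bases 102 to 96. Atp5g2 and Atp5e are examples of lower members with a match. Cox6b2 and Ndufa12, the members that fell by the most, had none of these letters in their windows. The last 9, 23 and 4 bases of the windows of Uqcr11, Cox6a1 and Atp5e lie inside the gene as annotated on mm9. Such matches describe the sequence only, and binding was not measured.

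In complex I, 8 of the 11 members that rose were genes named Ndufb, which encode accessory subunits of the membrane arm. This grouping by symbol was made after the values had been seen. Of the 10 Ndufb genes, 8 were higher and 0 lower, and their median log2 fold change was 0.50. Of the 25 other complex I genes, 3 were higher and 2 lower, with a median of -0.018. For comparison, 23.3% of all genes tested were higher and 24.1% lower, and neither class was tested against these shares. By library, the median difference of the Ndufb genes from their Rnf40+/+ mean was -0.15, -0.054 and 0.14 in the Rnf40+/+ and 0.48, 0.35 and 0.59 in the Rnf40-/- libraries, on the log2 scale. The groups did not overlap. For the 12 Ndufa genes it was -0.13, -0.035 and 0.18 in the Rnf40+/+ and 0.013, -0.059 and -0.033 in the Rnf40-/- libraries, and for the 8 Ndufs genes it was -0.094, -0.075 and 0.15 in the Rnf40+/+ and -0.049, -0.22 and -0.040 in the Rnf40-/- libraries. In both cases the Rnf40-/- values fell within or below the range of the Rnf40+/+ values.

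**Figure D2:**
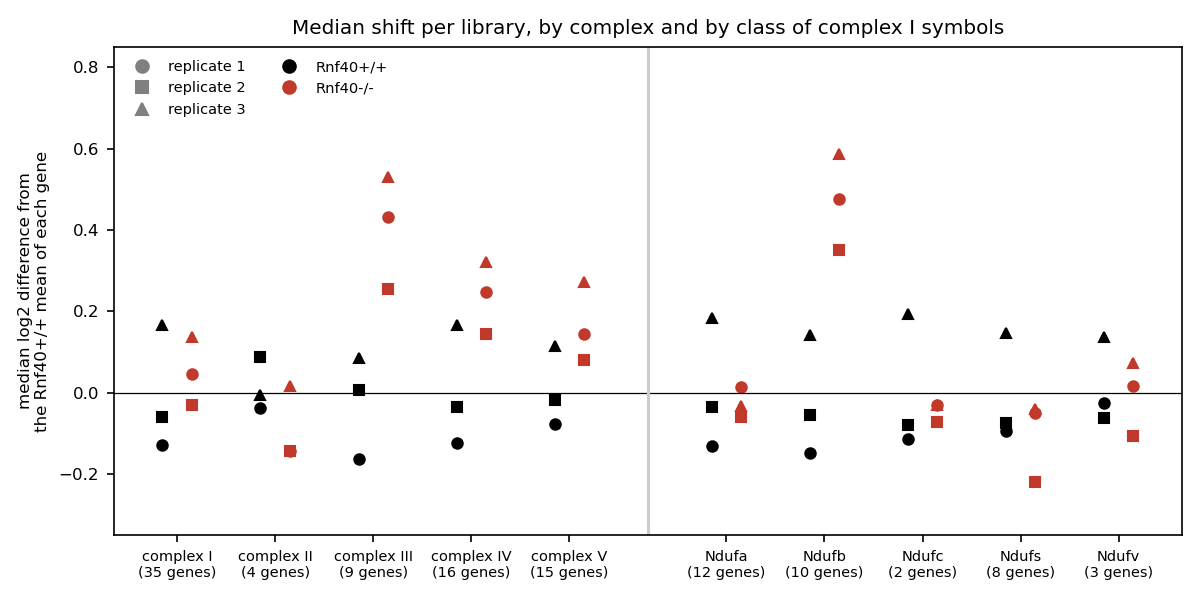
Median log2 difference of each library from the Rnf40+/+ mean of each gene, over the members tested of each complex (left) and of each class of complex I symbols (right), with the replicate by marker shape and the genotype by colour. The Rnf40-/- libraries lie above the Rnf40+/+ libraries in complex III and in the Ndufb class (0.35 to 0.59), and Rnf40+/+ replicate 3 is the highest of the Rnf40+/+ libraries in every group but complex II.

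Ndufb6 (ENSMUSG00000071014, chr4:40217624-40226454, minus strand) had 748, 900.4 and 975 normalized counts in Rnf40+/+ and 1351, 1357 and 1464 in Rnf40-/- libraries, a 1.60-fold rise (log2 fold change 0.68, standard error 0.095, limma adjusted p = 1.14e-04). Its lowest Rnf40-/- value was above its highest Rnf40+/+ value. Ndufb4 (ENSMUSG00000022820, chr16:37647256-37654539, minus strand) had 1075, 1229.8 and 1330.4 against 1773, 1733 and 1906 normalized counts, again without overlap (log2 fold change 0.58, standard error 0.084, limma adjusted p = 1.50e-04). Ndufb3 (ENSMUSG00000026032, chr1:58643228-58652808, plus strand) went up from a mean of 1121 ± 61.2 to 1644 ± 76.5 (SD, n = 3 each; log2 fold change 0.55, standard error 0.072, limma adjusted p = 6.08e-05), with 1120.2, 1059.5 and 1182 in Rnf40+/+ and 1556, 1689.7 and 1687 in Rnf40-/- libraries. In Ndufb3 too all Rnf40-/- values were the higher ones, and each of the 3 genes kept its call with any 1 library left out. The other higher members of the class were Ndufb9 (0.54), Ndufb10 (0.54), Ndufb7 (0.46), Ndufb11 (0.45) and Ndufb5 (0.41). Ndufb7 had 571, 678 and 927 against 1059, 874 and 1012 normalized counts, so that its groups overlapped, and it lost its call in 4 of the 6 fits without 1 library. The exceptions were Ndufb8 (0.11, limma adjusted p = 0.210) and Ndufb2 (-0.046, limma adjusted p = 0.849). The exons of Ndufb2 overlap those of Adck2 on the same strand in the annotation, so that their reads cannot be told apart. Ndufb5, Ndufb6 and Ndufb11 share exon sequence with a neighbour on the opposite strand. The same holds for Uqcrc2, Cox6c, Atp5d, Atp5f1 and Atp5j among the called members of the other complexes. Ndufb8 had 2 entries in the annotation, and its overlap with neighbours was not examined. The library kit kept the strand, but whether counting used it is not given in the sources used here.

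The core subunits in the matrix arm carry the electron transfer centres. Ndufv2, a core subunit with an iron-sulfur centre in the NADH-oxidizing module (ENSMUSG00000024099, chr17:66428135-66450899, minus strand), had 1692, 1704 and 1503 normalized counts in Rnf40+/+ and 2495, 2434 and 2667 in Rnf40-/- libraries. It rose 1.55-fold without overlap (log2 fold change 0.63, standard error 0.072, limma adjusted p = 2.15e-05). Its partner in the same module, Ndufv1, had 1228 ± 108 and 1221 ± 76.7 normalized counts (SD, n = 3 each; log2 fold change -0.0064, standard error 0.082, limma adjusted p = 0.957). The groups of Ndufv1 overlapped, and the difference between these genes was not tested. The core genes Ndufs1 (-0.018), Ndufs3 (-0.11), Ndufs7 (-0.21) and Ndufs8 (-0.16) did not pass the test.

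Among the other accessory subunits, Ndufa12, which sits on the matrix arm (ENSMUSG00000020022, chr10:93661700-93684188, plus strand), went down from a mean of 743 ± 29.5 to 480.4 ± 10.6 (SD, n = 3 each; log2 fold change -0.63, standard error 0.079, limma adjusted p = 4.80e-05). Its values were 712, 745 and 771 in Rnf40+/+ and 484, 488 and 468 in Rnf40-/- libraries, and these groups were far apart relative to their spread. Ndufs4, an accessory subunit of the matrix arm, was higher (log2 fold change 0.34, standard error 0.091, limma adjusted p = 0.00911), and so was Ndufa8, which faces the intermembrane space (log2 fold change 0.26, standard error 0.086, limma adjusted p = 0.0271). Ndufa8 had 1281, 1329.8 and 1466 against 1667, 1448 and 1770.4 normalized counts with overlap, and it lost its call in 4 of the 6 fits without 1 library. Per kilobase of transcript, Ndufa7 had the highest level in complex I, with 4262 and 4146 normalized counts per kb in Rnf40+/+ and Rnf40-/- MEFs, and its log2 fold change of -0.035 did not pass the test (adjusted p = 0.737 in limma). The remaining 14 accessory genes of complex I did not pass the test, with log2 fold changes between -0.29 (Ndufa2) and 0.26 (Ndufa1). In 1 of them, Ndufa6 (1099, 1173 and 1088 against 986, 1031 and 1022), the groups did not overlap, with all Rnf40-/- values lower (log2 fold change -0.14, standard error 0.069, limma adjusted p = 0.107). The median of complex I as a whole depended on Rnf40+/+ replicate 3. Without this library it moved from 0.035 to 0.17, and the other libraries left out in turn gave -0.0053 to 0.11.

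Complex II is also the succinate dehydrogenase of the tricarboxylic acid cycle, and its 4 genes did not move together. Sdha, the flavoprotein that oxidizes succinate (ENSMUSG00000021577, chr13:74459702-74487728, minus strand), had 3707, 4099 and 3586 normalized counts in Rnf40+/+ and 4783, 4497 and 4770.1 in Rnf40-/- libraries, a 1.23-fold rise (log2 fold change 0.30, standard error 0.068, limma adjusted p = 0.00300). Sdhd, a membrane anchor (ENSMUSG00000000171, chr9:50404443-50411954, minus strand), had 2073, 2229 and 2032 against 1593, 1732 and 1832 normalized counts (log2 fold change -0.30, standard error 0.073, limma adjusted p = 0.00507). Both genes kept non-overlapping groups, in opposite directions. Sdhb, the iron-sulfur subunit, had 1685, 1646 and 1893 against 1627, 1626 and 1884 normalized counts with overlapping groups (log2 fold change -0.025, standard error 0.081, limma adjusted p = 0.824), and the sign of this value changed between settings. Sdhc, the other membrane anchor, had 2288, 2689 and 2600.1 against 2209, 2206 and 2376 (log2 fold change -0.16, standard error 0.074, limma adjusted p = 0.105). Per kilobase, Sdhd had the highest level of the 4 in Rnf40+/+ MEFs, with 1640.5 and 1336 normalized counts per kb in Rnf40+/+ and Rnf40-/- MEFs, whereas in Rnf40-/- MEFs Sdha (1615) and Sdhb (1499) were above it.

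In complex III, 6 of 9 rows were higher, and both rows with the largest rises among all members belong to 1 small accessory subunit. Uqcr11 (ENSMUSG00000020163, chr10:79865742-79869575, minus strand) had 602, 757 and 974 normalized counts in Rnf40+/+ and 1461, 1221 and 1396 in Rnf40-/- libraries, a 1.78-fold rise (log2 fold change 0.83, standard error 0.14, limma adjusted p = 4.78e-04). The row named Uqcr had 643, 708 and 733 against 1332, 1185 and 1324 normalized counts, a 1.84-fold rise (log2 fold change 0.88, standard error 0.081, limma adjusted p = 4.13e-06). In both rows the groups were clearly separate. RefSeq lists Uqcr as an older name of Uqcr11, so the 2 rows may hold reads of 1 gene and are not independent. Without the row Uqcr, 5 of 8 genes were higher and the median of the complex was 0.32 in place of 0.42. Uqcr10, the neighbouring small subunit (1388, 1564 and 1786 against 2365, 2039 and 2309.5 normalized counts), rose 1.42-fold (log2 fold change 0.51, standard error 0.094, limma adjusted p = 8.48e-04). Uqcrfs1, the Rieske iron-sulfur protein that hands electrons to cytochrome c1, had 1410.4, 1668 and 1677 against 2236, 2144 and 2283 normalized counts (log2 fold change 0.49, standard error 0.078, limma adjusted p = 2.89e-04). Uqcrh, the hinge protein, had the highest level per kilobase of the complex in Rnf40+/+ MEFs (3805 and 5067 normalized counts per kb in Rnf40+/+ and Rnf40-/- MEFs) and also rose (log2 fold change 0.42, standard error 0.10, limma adjusted p = 0.00509). In Rnf40-/- MEFs the level per kilobase of Uqcr10 was slightly higher (5156).

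Of the core proteins of complex III, Uqcrc2 was higher (log2 fold change 0.22, standard error 0.066, limma adjusted p = 0.0172) and Uqcrc1 did not pass the test (log2 fold change 0.11, standard error 0.080, limma adjusted p = 0.290). Uqcrc2 had 2144, 2330.2 and 2266 against 2484, 2615 and 2734 normalized counts, and it lost its call in 3 of the 6 fits without 1 library. The small subunits Uqcrb (-0.15, limma adjusted p = 0.153) and Uqcrq (-0.10, limma adjusted p = 0.562) had values on the other side of 0. By library, the median difference of the complex from the Rnf40+/+ mean was -0.16, 0.0060 and 0.086 in the Rnf40+/+ and 0.43, 0.26 and 0.53 in the Rnf40-/- libraries. The Rnf40-/- values all exceeded the highest Rnf40+/+ value.

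**Figure D3:**
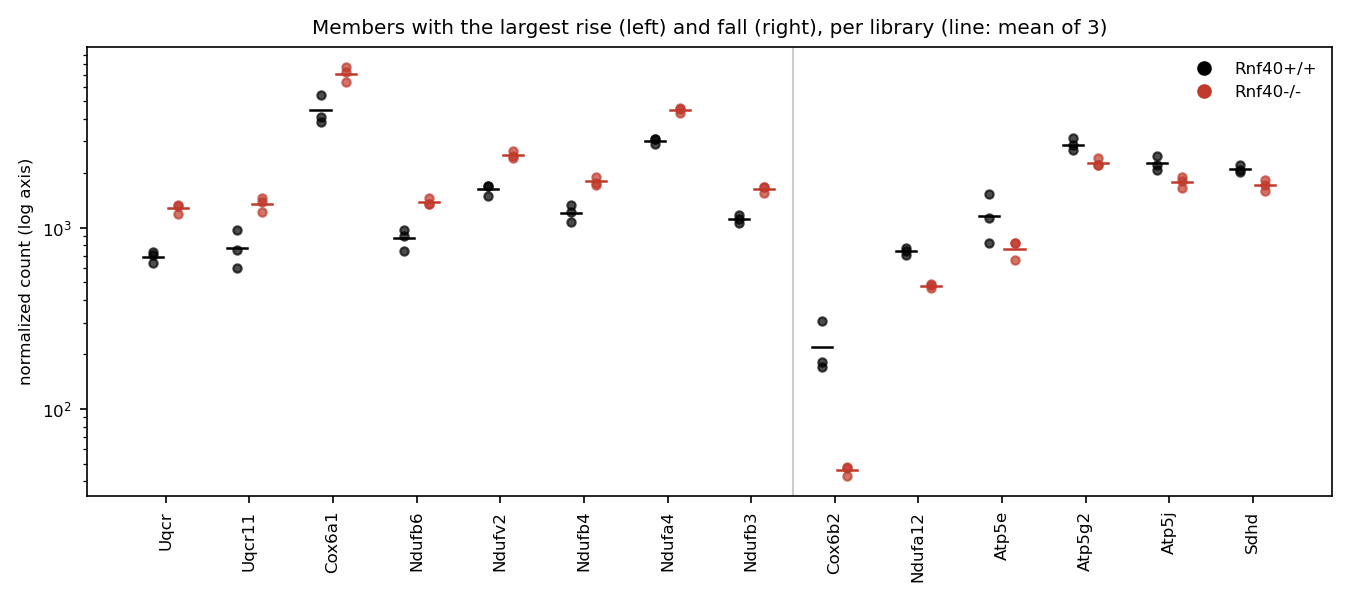
Normalized count (log axis) in each library for the 8 members with the largest rise (left) and 6 of the 7 that fell (right), with Rnf40+/+ in black, Rnf40-/- in red and the mean of 3 as a line. Uqcr lies at 643, 708 and 733 against 1332, 1185 and 1324, and Cox6b2 at 171, 182 and 307 against 42.8, 46.96 and 48.2.

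In complex IV, 8 widely expressed members were higher, and the 1 gene that fell was a tissue-restricted isoform. Cox6a1, the ubiquitous form of subunit VIa (ENSMUSG00000041697, chr5:115795651-115798990, minus strand), had 3842, 4072 and 5433 normalized counts in Rnf40+/+ and 7203, 6382 and 7676 in Rnf40-/- libraries, a 1.61-fold rise (log2 fold change 0.68, standard error 0.12, limma adjusted p = 4.48e-04). Ndufa4 (ENSMUSG00000029632, chr6:11850373-11857446, minus strand) had 2916, 3099 and 3077 against 4587, 4289 and 4550.1 normalized counts, with a narrow spread in both groups (log2 fold change 0.56, standard error 0.062, limma adjusted p = 1.64e-05). Cox7a2l, whose product links complex III to complex IV in supercomplexes, had 3008, 3278 and 3642 against 4721, 4323 and 5373 (log2 fold change 0.54, standard error 0.090, limma adjusted p = 4.42e-04). In none of these genes did the groups overlap. The other higher members were Cox8a (0.45), Cox7b (0.42), Cox6c (0.39), Cox7a2 (0.31) and Cox5b (0.25). Cox7a2 had 1189, 1269 and 1459 against 1574, 1538 and 1729.8 normalized counts (standard error 0.085, limma adjusted p = 0.0102). Cox8a had 3326, 3261 and 3952 against 4819, 4396 and 5191 (standard error 0.086, limma adjusted p = 0.00105). Both were separated by genotype, but Cox7a2 lost its call without Rnf40-/- replicate 3 (0.26, limma adjusted p = 0.0532).

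Cox5a and Cox5b encode different subunits of complex IV. Cox5b had 2012, 2127 and 2397 against 2575, 2509 and 2691 normalized counts (standard error 0.074, limma adjusted p = 0.0144) and lost its call in 3 of the 6 fits without 1 library. Cox5a had 2871, 2766 and 2797 against 2884, 2744 and 3241 (log2 fold change 0.069, standard error 0.071, limma adjusted p = 0.453), with overlap. Cox4i1, the ubiquitous form of subunit IV, had the highest level per kilobase of the complex in Rnf40+/+ MEFs (9227 and 10560.1 normalized counts per kb in Rnf40+/+ and Rnf40-/- MEFs), but in Rnf40-/- MEFs Cox6a1 was above it (12412). The values of Cox4i1, 5218, 6111 and 7467 against 7377, 6322 and 7811, overlapped (log2 fold change 0.20, standard error 0.12, limma adjusted p = 0.172), and among the settings tried it passed the test only without Rnf40+/+ replicate 3 (0.34, limma adjusted p = 0.0068). Cox6b1 (log2 fold change 0.091, standard error 0.084, limma adjusted p = 0.396) and Cox7c (0.14, limma adjusted p = 0.233) did not pass the test either. Cox6b1 had 2761, 2963 and 3405 against 3246, 3013 and 3445 normalized counts.

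Cox6b2, the testis form of subunit VIb (ENSMUSG00000051811, chr7:4703396-4704696, minus strand), had 171, 182 and 307 normalized counts in Rnf40+/+ and 42.8, 46.96 and 48.2 in Rnf40-/- libraries. Its mean fell from 219.6 ± 75.5 to 45.98 ± 2.80 (SD, n = 3 each), the largest difference of any member (log2 fold change -2.18, standard error 0.22, limma adjusted p = 7.96e-06). The groups were far apart, and the fits that omitted 1 library gave log2 fold changes between -2.34 and -1.92. Even in Rnf40+/+ MEFs its level per kilobase, 399, was well under that of its ubiquitous paralog Cox6b1 at 6026.

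The other paralogs of low level had at most 37.02 normalized counts in any library, and several were near the limit of detection. Cox7a1, the muscle form paired with Cox7a2, had 13.1, 9.18 and 18.4 against 10.2, 6.26 and 12.3 normalized counts (log2 fold change -0.46, standard error 0.44, limma adjusted p = 0.420). Ndufa4l2, the paralog of Ndufa4, had 14.3, 5.10 and 26.4 against 7.14, 10.4 and 6.61 (log2 fold change -0.62, standard error 0.55, limma adjusted p = 0.383), and Cox7b2, the testis paralog of Cox7b, had 37.02, 13.3 and 11.98 against 13.3, 7.31 and 5.67 (log2 fold change -1.05, standard error 0.50, limma adjusted p = 0.106). All 3 overlapped between genotypes. Cox4i2 had 11.9, 6.12 and 9.58 against 4.08, 7.31 and 6.61 normalized counts, and Cox6a2, the muscle form of subunit VIa, had 9.55, 4.08 and 15.2 against 6.12, 2.09 and 2.83. Neither had enough reads to be tested, and their groups overlapped. Cox8b was found only in Rnf40+/+ replicate 3, at 0.799 normalized counts, and Cox8c was at 0 in every library, where a count of 0 allows up to 2.40 to 3.58 normalized counts depending on the library.

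**Figure D4:**
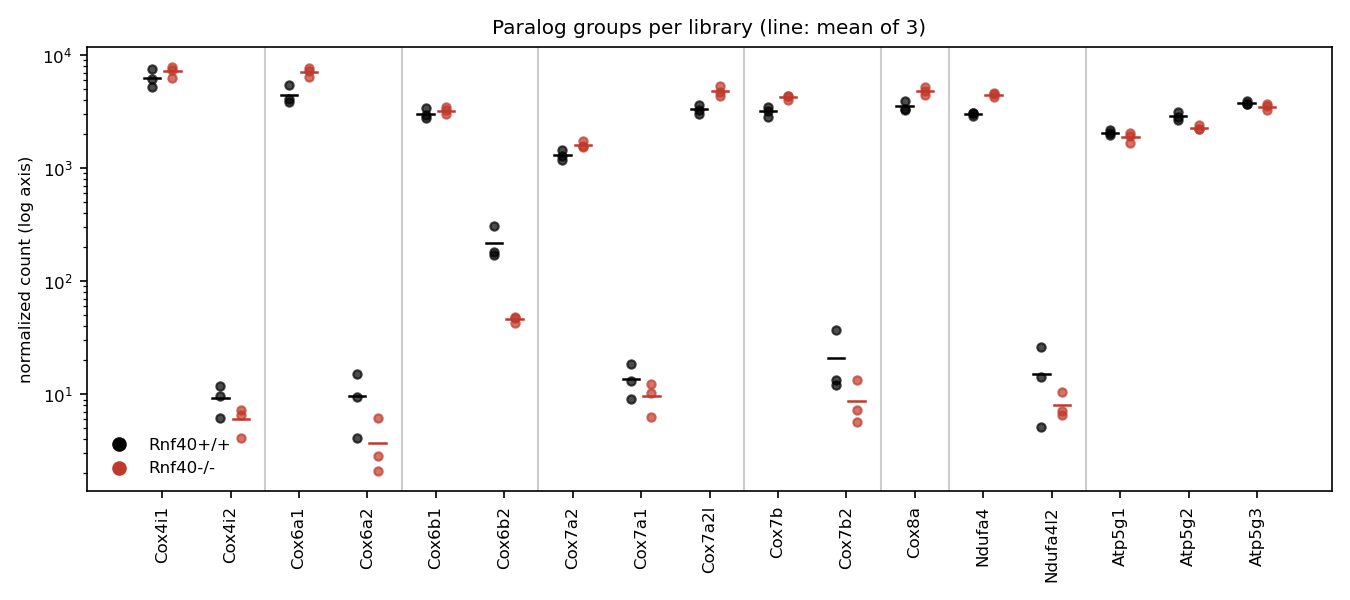
Normalized count (log axis) in each library for the paralog groups of complex IV and for the c-ring genes of complex V, separated by grey lines, with the mean of 3 as a line. The ubiquitous forms lie above 1000 normalized counts in every library and the tissue-restricted forms and Ndufa4l2 below 40, except Cox6b2 at 171, 182 and 307 in Rnf40+/+ and 42.8, 46.96 and 48.2 in Rnf40-/- libraries.

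In complex V, the catalytic F1 sector and the membrane-bound part both held genes that rose and genes that fell. Of the 5 F1 genes, 3 were higher. Atp5c1, the central gamma shaft (ENSMUSG00000025781, chr2:9977643-10002137, minus strand), had 3805, 3934 and 3595 normalized counts in Rnf40+/+ and 5451, 5150.4 and 5505 in Rnf40-/- libraries (log2 fold change 0.51, standard error 0.063, limma adjusted p = 4.59e-05). Atp5d, the delta subunit at the foot of the shaft, was higher with overlapping groups (2977, 3385 and 4188 against 4585, 4045 and 4821; log2 fold change 0.36, standard error 0.11, limma adjusted p = 0.0173). Atp5a1, the alpha subunit, had 9534, 10498 and 10155 against 11469, 11227 and 12134 (log2 fold change 0.21, standard error 0.066, limma adjusted p = 0.0223). Atp5d and Atp5a1 lost their calls in 4 and 3 of the 6 fits without 1 library, whereas Atp5c1 lost it in none. Atp5b, the catalytic beta subunit, had the highest level per kilobase of all members in both genotypes (12297 and 13933 normalized counts per kb). Its groups of 23193, 24580.3 and 22909 against 26042, 25370.0 and 28672 normalized counts did not overlap, but it missed the threshold (log2 fold change 0.18, standard error 0.074, limma adjusted p = 0.0668). Atp5e, the small epsilon subunit (ENSMUSG00000016252, chr2:174286573-174289606, minus strand), had 1137, 827 and 1532 against 819.8, 665 and 821 normalized counts (log2 fold change -0.56, standard error 0.17, limma adjusted p = 0.0186). The Rnf40-/- libraries lay just below the lowest Rnf40+/+ library, and the call was lost without Rnf40-/- replicate 2 (-0.46, limma adjusted p = 0.0921) and with the Wald test of DESeq2 (adjusted p = 0.0588).

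In the membrane sector and the stalk that holds it to F1, Atp5f1, the stator subunit b, had 3436, 3821 and 3778 against 5214, 5131 and 5408 normalized counts (log2 fold change 0.51, standard error 0.065, limma adjusted p = 4.84e-05). Atp5l, subunit g, had 4079.5, 3890.4 and 3939 against 5503, 5064 and 5753 (log2 fold change 0.45, standard error 0.066, limma adjusted p = 1.49e-04), and both genes were clearly separated by genotype. The exons of Atp5f1 overlap those of Wdr77 on the opposite strand, and the part of this overlap in its values was not tested. Atp5h, subunit d of the stalk, was higher with overlap (log2 fold change 0.28, standard error 0.10, limma adjusted p = 0.0322) and lost its call in 4 of the 6 fits without 1 library. Atp5j, the stalk subunit F6 (ENSMUSG00000022890, chr16:84828111-84835870, minus strand), fell instead, with 2079, 2230.2 and 2484 against 1820.1, 1651 and 1919 normalized counts (log2 fold change -0.33, standard error 0.082, limma adjusted p = 0.00546). Its exons overlap those of Gabpa on the opposite strand, a gene that was higher (0.24). The stalk subunit OSCP, encoded by Atp5o, had a log2 fold change of 0.12 (limma adjusted p = 0.362), and Atp5j2 and Atp5k had 0.31 and 0.016 without passing the test. The exons of Atp5o overlap those of Donson on the same strand in the annotation, so that their reads cannot be told apart.

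The proton-carrying ring of complex V is built from subunit c alone, and Atp5g1, Atp5g2 and Atp5g3 encode the same mature protein. None of the 3 genes rose. Atp5g2 (ENSMUSG00000062683, chr15:102493299-102501478, minus strand) had 2848, 2683 and 3113 normalized counts in Rnf40+/+ and 2216, 2211 and 2426 in Rnf40-/- libraries, a fall without overlap (log2 fold change -0.33, standard error 0.073, limma adjusted p = 0.00260). Atp5g1 had 2034, 1979 and 2182 against 1912, 1677 and 2048 (log2 fold change -0.14, standard error 0.081, limma adjusted p = 0.177), and Atp5g3 had 3696, 3669 and 3907 against 3541, 3255 and 3729 (log2 fold change -0.10, standard error 0.068, limma adjusted p = 0.247), both with overlap. As a group the c-ring genes had a median log2 fold change of -0.14.

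Of the 3 rows that are not structural subunits, Cox4nb, a gene next to Cox4i1 that encodes a subunit of the endoplasmic reticulum membrane complex, was higher (409.6, 425 and 429.6 against 529, 446 and 575 normalized counts; log2 fold change 0.29, standard error 0.10, limma adjusted p = 0.0392). Atp5sl was also higher (log2 fold change 0.38, standard error 0.12, limma adjusted p = 0.0235), and Atp5s was not called (log2 fold change 0.14, standard error 0.11, limma adjusted p = 0.300). Without these rows 32 of 79 members were higher and 7 lower.

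The single libraries differed within a genotype. Rnf40+/+ replicate 3, the deepest library, had the highest of the 3 Rnf40+/+ values for 65 of the 82 members, against 5 for replicate 1 and 12 for replicate 2. This count was made for the members only. The median difference from the Rnf40+/+ mean over all genes tested was -0.012, 0.012 and -0.0092 in the Rnf40+/+ libraries. Over all members, the median difference from the Rnf40+/+ mean was -0.11, -0.032 and 0.14 in the Rnf40+/+ and 0.14, 0.067 and 0.26 in the Rnf40-/- libraries, so that the groups overlapped by this measure. For complex IV it was -0.12, -0.035 and 0.17 in the Rnf40+/+ and 0.25, 0.14 and 0.32 in the Rnf40-/- libraries, also with overlap. When Rnf40+/+ replicate 3 was left out, 41 members were higher and 7 lower, and the median of all members was 0.22 in place of 0.13. When Rnf40-/- replicate 3 was left out, 24 were higher and 7 lower, with a median of 0.11.

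Many subunits are encoded by short transcripts, and short transcripts as a class moved with the library as well. For the 911 tested genes with an annotated transcript under 1000 nucleotides, the median difference was -0.065, -0.057 and 0.13 in the Rnf40+/+ and -0.098, -0.18 and -0.071 in the Rnf40-/- libraries. Their median log2 fold change was -0.13, or -0.052 without Rnf40+/+ replicate 3, and 17.6% of them were higher and 28.1% lower. The 48 members in this class had a median of 0.13, with 20 higher and 4 lower. In the class from 1000 to below 2000 nucleotides the median of all genes was -0.13 and that of the 24 members in it was 0.13. From 2000 to below 4000 nucleotides the median was -0.017 for all genes and 0.15 for the 6 members. From 4000 nucleotides it was 0.10 for all genes and -0.046 for the 3 members. The part of transcript length in the members' values was not tested.

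**Figure D5:**
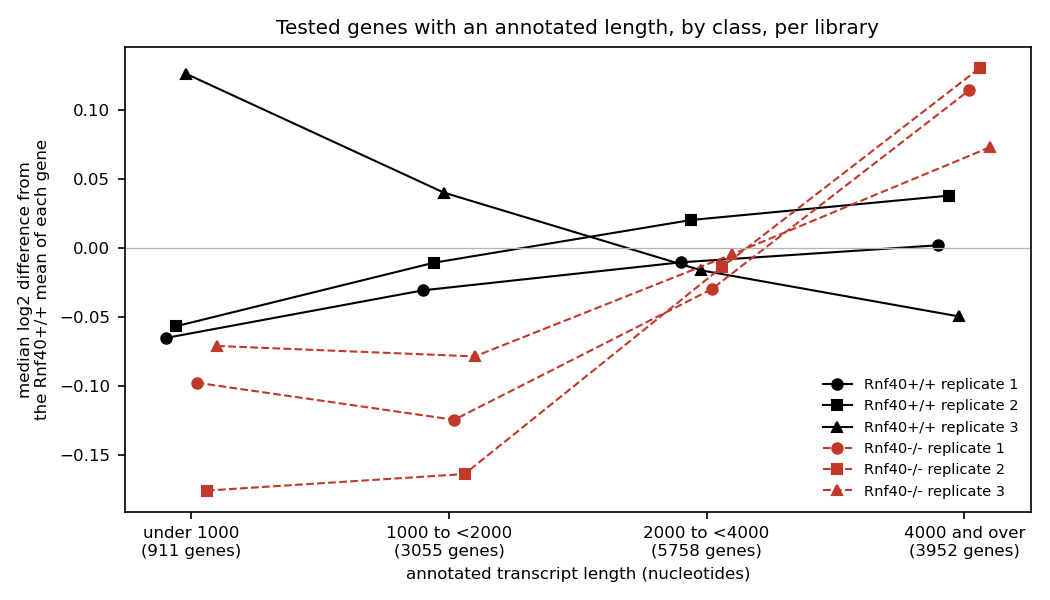
Median log2 difference of each library from the Rnf40+/+ mean of each gene, for tested genes in 4 classes of annotated transcript length, with Rnf40+/+ libraries as solid black and Rnf40-/- libraries as dashed red lines. Under 1000 nucleotides Rnf40+/+ replicate 3 stands at 0.13 and the other libraries between -0.18 and -0.057.

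Assembly factors insert cofactors and join the subunits, and 30 of the 46 listed were found. Of these 30, 3 (10.0%) were higher and 10 (33.3%) lower in limma, against 23.3% and 24.1% of all genes tested. They had a median log2 fold change of -0.14. The part of transcript length in their values was not tested. Cox18, which inserts a mitochondrially made subunit of complex IV into the membrane, had 331, 328 and 333 normalized counts in Rnf40+/+ and 98.9, 111 and 94.4 in Rnf40-/- libraries (log2 fold change -1.70, standard error 0.12, limma adjusted p = 6.27e-07). Tmem70, needed for the assembly of ATP synthase, had 1559.7, 1639.8 and 1527 against 802, 785 and 919.6 (log2 fold change -0.92, standard error 0.079, limma adjusted p = 2.40e-06). Lyrm7, which helps insert the Rieske protein into complex III, rose (log2 fold change 0.87, standard error 0.29, limma adjusted p = 0.0267). None of these overlapped between genotypes. A total of 3 rows named for genes of mitochondrial DNA were matched, and none passed the test. Leaving out Rnf40+/+ replicate 2 made 1 of them higher, and leaving out Rnf40+/+ replicate 1 or Rnf40-/- replicate 3 made 1 lower. Their log2 fold changes were 0.21 for mt-Nd4, 0.029 for Cytb and -0.27 for Cox2, and the spread between Rnf40+/+ libraries was wide (19227, 24113 and 16796 normalized counts for mt-Nd4).

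Among 16 tested regulators of mitochondrial biogenesis and DNA maintenance, 4 (25.0%) were higher and 0 lower in limma. The share that was higher is close to the 23.3% of all genes tested, of which 24.1% were lower. The median log2 fold change of the list was -0.0030. Tfam, which packages mitochondrial DNA and takes part in its transcription, had 438, 564 and 572 against 783, 750.4 and 789 normalized counts (log2 fold change 0.57, standard error 0.10, limma adjusted p = 7.91e-04). Tfb2m, its partner in transcription, rose as well (log2 fold change 0.39, standard error 0.086, limma adjusted p = 0.00278), as did Yy1 (log2 fold change 0.32, standard error 0.069, limma adjusted p = 0.00242) and Gabpa, the DNA-binding part of GABP (log2 fold change 0.24, standard error 0.071, limma adjusted p = 0.0136). Nrf1 did not pass the test (466, 511 and 462 against 507, 510.3 and 535 normalized counts; log2 fold change 0.11, standard error 0.085, limma adjusted p = 0.311). Ppargc1a, the coactivator PGC-1 alpha, had only 7.17, 4.08 and 5.59 against 9.18, 9.39 and 10.4 normalized counts and was not tested.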

How the data were processed

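RNA-seq libraries came from total RNA of 6 MEF samples, 3 per genotype, made with a strand-specific kit. Mapping by the authors was to the mouse transcriptome (mm9), and the deposited signal is the count per gene divided by 1 DESeq size factor per library. Submitters' processing notes name Bowtie2 (version 2.1.0) and DESeq (version 1.14.0). In each library 100% of values were whole multiples of 1 read (tolerance 0.001), so read counts were recovered. How reads matching several copies of a gene were counted is not given in the sources used here.

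The 16378 genes passing filterByExpr (edgeR 4.0.16) on these reads were tested by genotype, without other terms, in limma (version 3.58.1, R 4.3.3) with a variance trend. The input was log2(normalized count + 1), and p values were adjusted by Benjamini-Hochberg over all of them. The added 1 understates fold changes of rare transcripts. An exact permutation test of 1 gene with 3 against 3 libraries has 0.1 as its smallest p and was not used. Complexes and lists are described by counts and medians. The scripts were tested on simulated data with known changes in genes with many reads. There limma recovered 15 of 50 genes changed 1.25-fold and 43 of 50 changed 1.5-fold. A member that did not pass the test may therefore still differ by a small amount. Alternatives were edgeR and DESeq2 (version 1.42.0) on the reads, TMM and upper-quartile scaling, other pseudocounts and filters, a replicate block and each library left out.

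The members and lists were chosen with earlier results of these data known. Named with full statistics were the 8 largest rises and 8 largest falls called (7 existed), the paralog groups, the Sdh genes and the member of each complex with the highest level per kilobase, and from each list up to 3 genes. Values of other members were added to account for each complex. Rows for genes of mitochondrial DNA were matched without regard to letter case. Levels per kilobase divide the normalized count by the length of 1 annotated transcript (GENCODE, mm9). A total of 1 member and 1 gene of the other lists are counted but not reported here by name. ChIP-seq of the study was not analysed here.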

Additional observations from a re-analysis of the deposited data

How the results depend on the processing

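Of 34 higher members, 24 kept their call with each library left out in turn, and all 34 kept it under TMM and upper-quartile scaling, pseudocounts of 0.1 and 10, other read filters, edgeR, DESeq2 and the replicate block. Of 7 lower members, 6 kept it throughout, and Atp5e did not. Leaving out 1 library gave 24 to 41 higher and 6 to 10 lower members, and medians over all members of 0.082 to 0.22. For complex I the median was -0.0053 to 0.17, and in that complex 4 members were lower without Rnf40+/+ replicate 1. The median moved beyond the spread between replicates only without Rnf40+/+ replicate 3 (0.17). Complex II had 2 lower members without Rnf40+/+ replicate 1, and its median ranged from -0.14 to -0.048 with 1 library left out and was -0.042 with upper-quartile scaling. The median of complex IV ranged from 0.14 to 0.33 with 1 library left out and was 0.14 with no filter beyond 1 read. In complex V, 3 members in place of 6 were higher when replicate 1 of either genotype or Rnf40-/- replicate 3 was omitted. Of the members named with full statistics, Sdhb changed sign with upper-quartile scaling (0.023) and without Rnf40-/- replicate 1 (0.010), Rnf40-/- replicate 2 (0.011) or Rnf40+/+ replicate 3 (0.037), and Ndufa7 with upper-quartile scaling (0.013) and without Rnf40+/+ replicate 3 (0.048). Neither passed the test in these fits, and over all libraries left out their log2 fold changes ranged from -0.095 to 0.037 and from -0.084 to 0.048. Upper-quartile scaling moved the median of all genes to 0.044 and gave 38 higher and 7 lower members. Over all genes 4299 were then higher and 3536 lower, against 3809 and 3955. Atp5b passed the test with edgeR (adjusted p = 0.0349), DESeq2 (0.018), upper-quartile scaling (0.0234) and without Rnf40+/+ replicate 2 (0.0418). Sdhc passed it without Rnf40+/+ replicate 1 (-0.23).

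Whether the replicate numbers pair the libraries is not given in the sources used here. Same-numbered libraries of the genotypes deviated together with correlations of 0.012, 0.017 and 0.021 over 16378 genes. No library correlated best with its own number, and all correlations between the genotypes lay between -0.053 and 0.037. With 3 libraries per genotype, such values cannot decide whether the libraries are paired. Blocking on the number gave 37 higher and 7 lower members. Over all genes it gave 4021 higher and 4196 lower, against 3809 and 3955 without the block. Leaving out the row Uqcr, and limiting complex IV to members with a Rnf40+/+ mean above 15, were chosen after seeing the data. The first gave 33 higher members and a median of 0.32 for complex III, and the second a median of 0.25 for complex IV. The isoforms Cox4i2, Cox6a2, Cox8b and Cox8c had too few reads to be tested at this depth.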

Other observations

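The tricarboxylic acid cycle feeds complexes I and II with electrons. Of 18 genes of the cycle and of pyruvate dehydrogenase, 5 (27.8%) were higher and 4 (22.2%) lower (limma, adjusted p under 0.05), shares close to the 23.3% and 24.1% of all genes tested. The median log2 fold change was 0.077. Idh2, the mitochondrial isocitrate dehydrogenase that uses NADP, went down from a mean of 1409 ± 119 to 726 ± 50.02 normalized counts (SD, n = 3 each; log2 fold change -0.96, standard error 0.085, limma adjusted p = 3.22e-06). Mdh2, the mitochondrial malate dehydrogenase, had 6072, 6363 and 6285 normalized counts in Rnf40+/+ and 9315, 9276 and 10189.7 in Rnf40-/- libraries (log2 fold change 0.62, standard error 0.064, limma adjusted p = 1.02e-05). In both genes the genotypes did not overlap. With upper-quartile scaling, without Rnf40-/- replicate 2 and without Rnf40+/+ replicate 1, 2 of the 18 genes were lower in place of 4.

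Of 11 subunits and carriers whose symbols fall outside the naming rule, 2 (18.2%) were higher and 3 (27.3%) lower in limma, against 23.3% and 24.1% of all genes tested, and 1 was higher without Rnf40-/- replicate 2. Atpif1, which inhibits ATP synthase when it runs in reverse, had 1919, 1941 and 2364 against 1363, 1216 and 1473 normalized counts and fell without overlap (log2 fold change -0.62, standard error 0.10, limma adjusted p = 2.33e-04). Ndufab1, the acyl carrier protein of complex I, was higher (log2 fold change 0.24, standard error 0.070, limma adjusted p = 0.0126), and Coq10a was lower (log2 fold change -0.46, standard error 0.10, limma adjusted p = 0.00313). Cyc1, the cytochrome c1 subunit of complex III, and Cycs, cytochrome c, did not pass the test, with log2 fold changes of 0.10 (limma adjusted p = 0.250) and 0.074 (limma adjusted p = 0.353).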
